A study of Mus musculus with 24 samples.

Results

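The promoters of long noncoding RNA (lncRNA) genes were followed through ATAC-seq peak lists of E14 mouse embryonic stem cells. ATAC-seq uses a transposase to insert sequencing adapters into open chromatin, so a peak marks accessible DNA. The genes were those of GENCODE vM21 (basic set, GRCm38) annotated as lincRNA, antisense, processed_transcript, sense_intronic, bidirectional_promoter_lncRNA or macro_lncRNA on chromosomes 1 to 19. A promoter was the 500 bp on either side of each annotated start, and starts within 1000 bp of a protein-coding start were left out. Of 9394 such genes, 7860 kept at least 1 start (9109 starts), among 51229 genes of every type, and 6926 of the 7860 carry only a provisional Gm or Rik name. A few genes with protein-coding symbols, such as Zswim6 and Ptpmt1, are annotated as processed_transcript and were kept. A library called a gene when the summit of a deposited peak fell inside its promoter.

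LncRNAs are transcripts without a long open reading frame. Some act on chromatin in cis, as Kcnq1ot1 and Airn do at imprinted clusters, some mainly host microRNAs or small nucleolar RNAs, and for many no function is known. CTCF is a zinc-finger protein that binds a long DNA motif and, with cohesin, anchors chromatin loops. Chd4, the ATPase of the NuRD complex, and Chd8 are chromatin remodellers of the CHD family.

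Every one of the 24 libraries was made from E14 cells of the CTCF AID genotype, whose CTCF carries the AID degron and is degraded once the auxin IAA is given. They formed 12 groups of 2 in 4 sets. The CTCF set held a control overexpression line, with no IAA or with IAA for 12 h, and 2 further lines given IAA for 12 h that overexpressed wild-type or mutated CTCF. The labels do not say what the mutation is. In the Chd4 and Chd8 sets, cells without IAA carried the hairpin shluci or 1 of 2 hairpins named for the remodeller (shRNA1, shRNA2). The serum set held cells with no overexpression construct named, untreated or given IAA for 12 h, in serum according to their labels, whereas the growth protocol describes serum-free medium for every sample. The labels do not say whether the 2 libraries of a group came from separate cultures, so the p-values below measure only the spread between these libraries. Lists were reduced within each set to the length of its shortest list by the authors' −log10 p, which gave 120137 peaks per library in the CTCF set, 80619 in the Chd4 set, 135410 in the Chd8 set and 59786 in the serum set. A percentile below is the rank of a peak in its reduced list, 100 being the strongest, and tests are made only within a set or, over both media, within each medium.

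Of the 10 lncRNA promoters lost with IAA in both media, 7 held a CTCF consensus, as did 19 of the 39 lost genes of every type. The sites of 6 of these lncRNA promoters are shown here. The 14-bp CTCF consensus, searched on both strands with at most 1 mismatch, is in capitals, with 30 bp of GRCm38 on either side, written 5′ to 3′ on the motif's strand. The first 6 promoters were called by all 4 libraries of the control cells without IAA and by none of the 4 with IAA. The sites lie at chr14:103012697-103012770 (plus strand, 174 bp upstream of the Gm34643 start), chr11:22617735-22617808 (minus strand, 364 bp downstream of the Gm12052 start), chr3:67573203-67573276 (minus strand, 419 bp upstream of the 4930402C01Rik start), chr17:45663430-45663503 (plus strand, 52 bp upstream of the Gm16172 start), chr2:151866665-151866738 (minus strand, 258 bp downstream of the Rspo4os start) and chr10:99460260-99460333 (minus strand, 335 bp downstream of the Gm34983 start).
Gm34643: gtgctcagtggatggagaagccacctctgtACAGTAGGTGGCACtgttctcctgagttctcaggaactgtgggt
Gm12052: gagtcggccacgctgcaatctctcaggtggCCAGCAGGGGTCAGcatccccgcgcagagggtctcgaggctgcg
4930402C01Rik: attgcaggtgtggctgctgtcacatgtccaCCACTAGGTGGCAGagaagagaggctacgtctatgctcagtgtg
Gm16172: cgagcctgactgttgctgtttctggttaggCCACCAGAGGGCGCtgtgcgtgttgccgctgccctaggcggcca
Rspo4os: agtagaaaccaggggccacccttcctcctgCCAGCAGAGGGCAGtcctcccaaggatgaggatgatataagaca
Gm34983: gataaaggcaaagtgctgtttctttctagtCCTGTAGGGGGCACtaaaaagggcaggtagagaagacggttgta

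The consensus was matched without mismatch at 4930402C01Rik, Gm16172 and Rspo4os. In the 4 libraries without IAA the nearest summit lay at a median of 29 bp (Rspo4os) to 94.5 bp (Gm34983) from the middle of the motif. For contrast, 3 promoters with the consensus stayed called by all 8 of these libraries at the highest mean percentiles of that kind. Their sites are at chr17:15248142-15248215 (Gm5091, minus strand), chr3:19894770-19894843 (4632415L05Rik, minus strand, no mismatch) and chr1:7397402-7397475 (Gm26901, plus strand).
Gm5091: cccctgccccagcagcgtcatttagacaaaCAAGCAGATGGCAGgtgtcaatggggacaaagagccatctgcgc
4632415L05Rik: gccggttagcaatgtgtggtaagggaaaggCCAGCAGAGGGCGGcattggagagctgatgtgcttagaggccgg
Gm26901: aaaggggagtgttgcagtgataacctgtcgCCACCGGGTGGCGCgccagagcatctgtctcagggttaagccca
At 4632415L05Rik the nearest summits lay a median of 49.5 bp from the motif, whereas at Gm5091 and Gm26901 they lay 209.5 and 711.5 bp away, so a call there need not be at the motif.

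Most lncRNA promoters were never called. Of the 7860 genes, 4789 (60.9%) were called by no library, 3071 by at least 1, 514 by exactly 1 and 172 (2.19%) by all 24. Among the 20807 protein-coding genes, 24.6% were called by none and 18.5% by all 24. At the deposited list lengths 3465 lncRNA genes were called by at least 1 library, and 3227 had an overlapping peak in at least 1. A promoter without a call is one whose peak, if any, was below the list's limit or had its summit elsewhere, and its chromatin need not be closed.

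**Figure D1:**
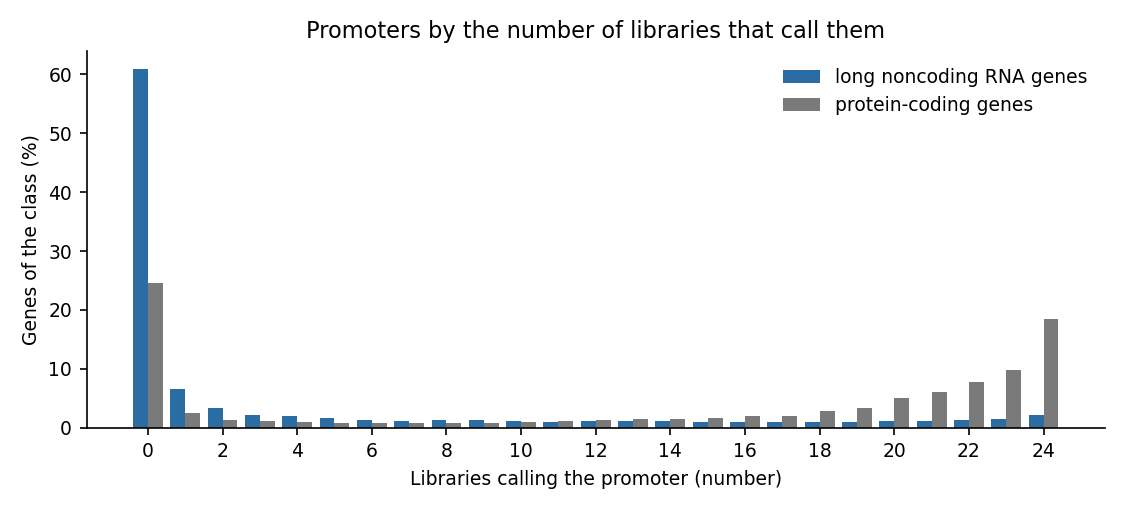
Percent of lncRNA genes (blue) and protein-coding genes (grey), on the vertical axis, by the number of libraries that call the promoter, from 0 to 24. The lncRNA genes pile up at 0 libraries (60.9%), while the protein-coding genes have a second peak at 24 (18.5%).

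Between annotated classes the share of called genes ran from 22.8 to 57.1%. Of the processed_transcript genes 257 of 508 (50.6%) were called by any library, of the antisense genes 911 of 2143 (42.5%), of the lincRNA genes 1823 of 4881 (37.3%), of the sense_intronic genes 71 of 312 (22.8%) and of the bidirectional_promoter_lncRNA genes 8 of 14 (57.1%). Starts inside a protein-coding gene on the opposite strand were called in 42.1% of 2023 genes, and those on the same strand in 27.4% of 464. By distance from the nearest protein-coding start the share was 45.8% at 1 to 5 kb, 45.2% at 5 to 20 kb, 41.4% at 20 to 100 kb and 29.6% beyond 100 kb.

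Called and uncalled promoters differed in CpG content. A CpG observed/expected ratio of at least 0.6, as in CpG islands, was found at 339 lncRNA promoters (4.31%) and at 45.1% of protein-coding promoters. Of these 339, 292 (86.1%) were called by any library, against 2779 of 7521 CpG-poor ones (36.9%). The median ratio was 0.194 in promoters called by no library and 0.439 in those called by all 24. When called, lncRNA promoters ranked below coding ones in every library: their median percentile lay between 56.4 and 66.3, against 70.5 to 88.4 for protein-coding promoters. These are descriptions over genes, which are not replicates.

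Among lncRNAs with a pluripotency link, the Platr (pluripotency-associated transcript) genes, Lncenc1 and Panct2, 17 of 27 were called by at least 1 library and 6 by all 24, against 39.1 and 2.19% of all lncRNA genes. The median was 7 libraries, and 0 over all lncRNA genes. The 6 were Platr9, Platr10, Platr11, Platr12, Platr22 and Platr26. Platr10, on chromosome 3, had percentiles between 77.4 and 99.5 over the 24 libraries. Lncenc1, an lncRNA of naive embryonic stem cells, was called by all 8 libraries of the CTCF set at percentiles of 86.4 to 92.8 and by all 4 of the serum set at 54.1 to 85.0. It was called by no library of the Chd4 set and by 2 of 6 in the Chd8 set. Platr2, Platr3, Platr6, Platr13 and 5 others had no call and no overlapping peak in any reduced list. At deposited lengths 8 of the 27 had no call.

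Of 13 small nucleolar RNA host genes, 10 were called by at least 1 library and 7 by 18 or more, against 39.1 and 9.61% of all 7860 lncRNA genes. Dancr was called by all 24 at percentiles of 78.4 to 99.8, and Snhg6 and Snhg8 by 23 each. Snhg1 and Tug1 were at 0 calls, but some of their annotated starts lie within 1000 bp of a protein-coding start and were left out, as at 112 genes in all, so their values refer to minor starts. Of 11 imprinted genes, 8 were called by at least 1 library, 4 by 18 or more and 1, Platr12 again, by all 24. Kcnq1ot1 (61.1 to 97.0) and Airn (18.9 to 89.5) were each called by 23 libraries, and Nespas, the antisense transcript of the Gnas cluster, by 22. H19 was called by none, Meg3 by 3 and Rian by 1, all maternally expressed genes of imprinted clusters.

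Of 10 widely expressed lncRNAs, 9 were called by at least 1 library and 4 by 18 or more, again beside 39.1 and 9.61% of all lncRNA genes. Pvt1, the neighbour of Myc, was called by all 24 libraries, and Lncpint and Crnde by 21 each. Neat1, the scaffold of paraspeckles, was called by 7 libraries, and Malat1, an abundant nuclear RNA, by 6 at percentiles of 6.7 to 26.8. The rule on summits matters here: Mir17hg, host of the miR-17 to miR-92 cluster, was called by 7 libraries, yet 23 had a peak overlapping its promoter. Over the remaining lists, 7 of 10 microRNA hosts were called by at least 1 library, with Mir124-2hg in all 24, as were 15 of 20 developmental lncRNAs (Pantr2 22, Rmst 21, Fendrr 0) and 4 of 8 lncRNAs of the Hox clusters (Hoxb3os 18, Hotair 2), beside the 39.1% of all lncRNA genes, which the Hox list lies near.

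**Figure D2:**
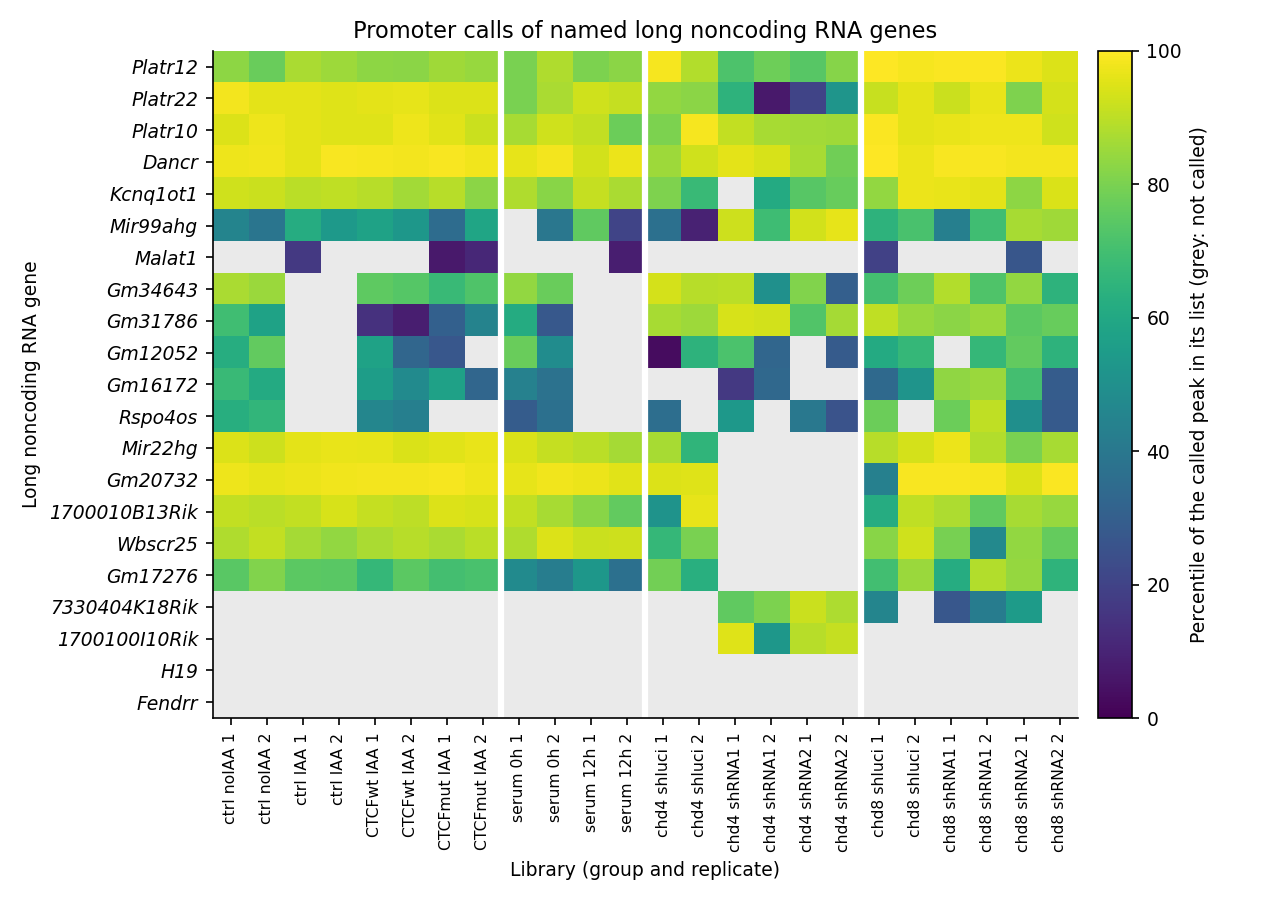
Percentile of the called peak (colour, 0 to 100) for 21 lncRNA genes (rows) in the 24 libraries (columns, grouped by set), grey meaning no call. Gm34643 and Gm31786 are grey in the 4 IAA libraries of control cells, and Mir22hg, Gm20732, 1700010B13Rik, Wbscr25 and Gm17276 are grey in the 4 libraries with Chd4 hairpins.

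The first comparison asked how lncRNA promoters changed 12 h after IAA was added to degrade CTCF. The number of called lncRNA promoters differed by less than the spread between libraries, while the share of them that held a CTCF consensus was lower in each of the 4 IAA libraries of control cells. In serum-free medium the libraries without IAA called 20.4 and 20.1% of the 7860 genes and those with IAA 20.3 and 20.1%. In serum the shares were 13.2 and 13.2% without IAA and 13.2 and 13.5% with it. The mean difference over both media was 0.0445 percentage points, below the combined SD of 0.254 (two-sided exact permutation p = 1, adjusted p = 1). This holds for lists of 1 length: at deposited lengths the difference was −1.28 in serum-free medium and 1.68 in serum, and with a −log10 q of at least 10 it was −1.69 and 1.74 (exact permutation p = 0.333 for each, the smallest possible).

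The consensus was present at 352 lncRNA promoters (4.48%), 6.63% of protein-coding promoters and 5.27% of promoters of every type. Among called lncRNA promoters without IAA, 9.61 and 9.87% held it in serum-free medium and 12.1 and 11.1% in serum. With IAA the shares were 7.44 and 7.60% in serum-free medium and 7.44 and 8.01% in serum. All 4 IAA libraries lay below both untreated libraries of their medium. The difference was −2.22 percentage points in serum-free medium (combined SD 0.219, exact permutation p = 0.333) and −3.88 in serum (combined SD 0.858, exact permutation p = 0.333), the smallest p that 2 against 2 libraries allow. Over both media it was −3.05 (two-sided exact permutation p = 0.0556, the smallest that 36 arrangements allow, adjusted p = 0.762 over 16 tests), so the design cannot pass 0.05.

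The wild-type line with IAA had shares of 9.13 and 9.20% and the mutated line 9.14 and 8.70%, both above the control line with IAA. The differences from the control line were 1.64 and 1.40 percentage points (combined SDs 0.123 and 0.330, exact permutation p = 0.333 for each, adjusted p = 0.762). Both comparisons share the control libraries. The lines differed from each other by 0.239, less than the combined SD of 0.314 (exact permutation p = 0.667), and within replicate number 1 the difference was −0.0163. It was 0.717 with at most 2 mismatches, 0.565 with 250 bp on either side and 0.410 with lists at 50% of the shortest (exact permutation p = 0.333 for each, the smallest possible). With a −log10 q of at least 10 it was −4.94e-05, and leaving out 1 library gave 0.0201 to 0.459. The lists of the CTCF set also differed in the length of their shortest peak, 112 to 140 bp in 5 libraries and 149 to 167 bp in 3. Within the 5, the difference with IAA was −2.14, and the wild-type and mutated lines lay 1.53 and 1.54 above the control line. Within the 3, none of which was without IAA, the lines lay 1.76 and 1.26 above it. Each class held 1 library of the control line with IAA and 1 of each CTCF line, so these differences rest on single libraries with IAA.

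**Figure D3:**
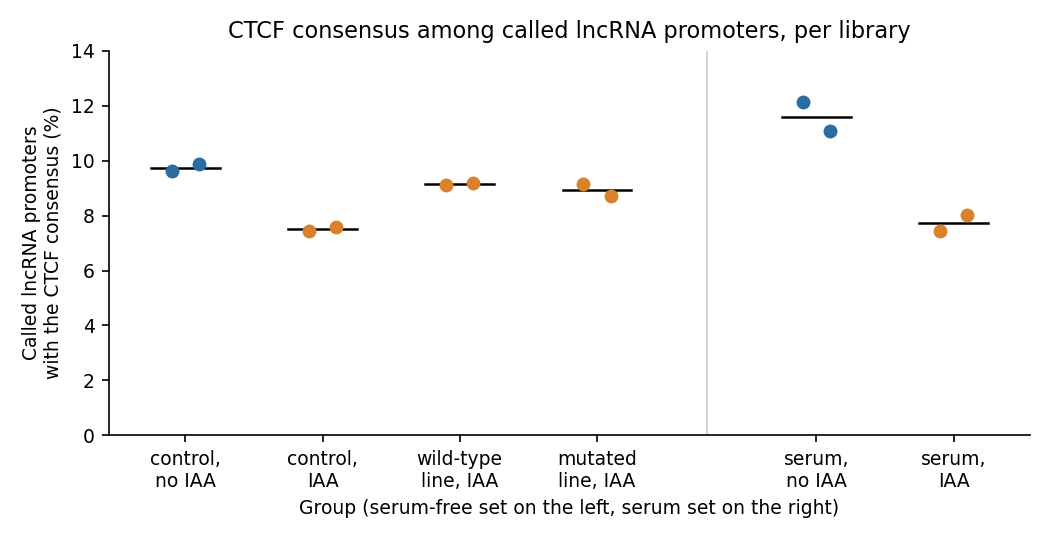
Percent of called lncRNA promoters that hold the CTCF consensus (vertical axis) in each library of the CTCF set (left) and the serum set (right), points being libraries, bars group means, blue without and orange with IAA. Control cells with IAA sit at 7.44 to 8.01%, below the 9.61 to 12.1% without it, and both CTCF lines lie between 8.70 and 9.20%.

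Gene by gene, a promoter was counted as lost when all reference libraries and no treated library called it, and as gained in the opposite case. In serum-free medium 73 of 1401 lncRNA promoters (5.21%) were lost with IAA, against a background of 1.96% over genes of every type. With the consensus the count was 21 of 134 (15.7%, 95% exact binomial interval 9.97 to 23.0%), and without it 52 of 1267 (4.10%, 3.08 to 5.35%), intervals that cover counting error over promoters only. Over genes of every type the shares lost were 5.97% with the consensus and 1.58% without it. In the other direction 62 of 6078 (1.02%) were gained, against 0.909% of all genes, 3 of them with the consensus. In serum 54 of 815 (6.63%) were lost, against a background of 2.21%. The count was 28 of 99 (28.3%, 19.7 to 38.2%) among those with the consensus and 26 of 716 (3.63%, 2.39 to 5.28%) among those without. Over genes of every type these shares were 7.13 and 1.74%. Gained in serum were 54 of 6598 (0.818%), against 0.771%. These counts need agreement of 4 libraries, and leaving out any 1 of them gave 140 to 160 losses and 105 to 184 gains in serum-free medium and 99 to 148 losses and 119 to 145 gains in serum. Lists cut to 50% of the shortest gave 34.4 and 44.8% of consensus promoters lost in serum-free medium and serum, and a consensus with at most 2 mismatches gave 7.79 and 10.8%.

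The consensus split the losses in the same direction at protein-coding promoters (2.44 and 0.975% in serum-free medium) and at windows of the same size away from annotated starts, placed on the summits themselves (37.2 and 6.17%). The 73 promoters lost in serum-free medium had a median percentile of 27.5 without IAA, against 70.1 for the 1178 called by all 4 libraries. In serum the 54 lost promoters were at 52.1 and the 665 called by all 4 at 70.2. Called lncRNA promoters rank below coding ones, and the part of rank in their higher loss was not tested. With the consensus the lost promoters ranked at a median of 37.5 in serum-free medium and 52.1 in serum, and without it at 25.8 and 49.7.

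**Figure D4:**
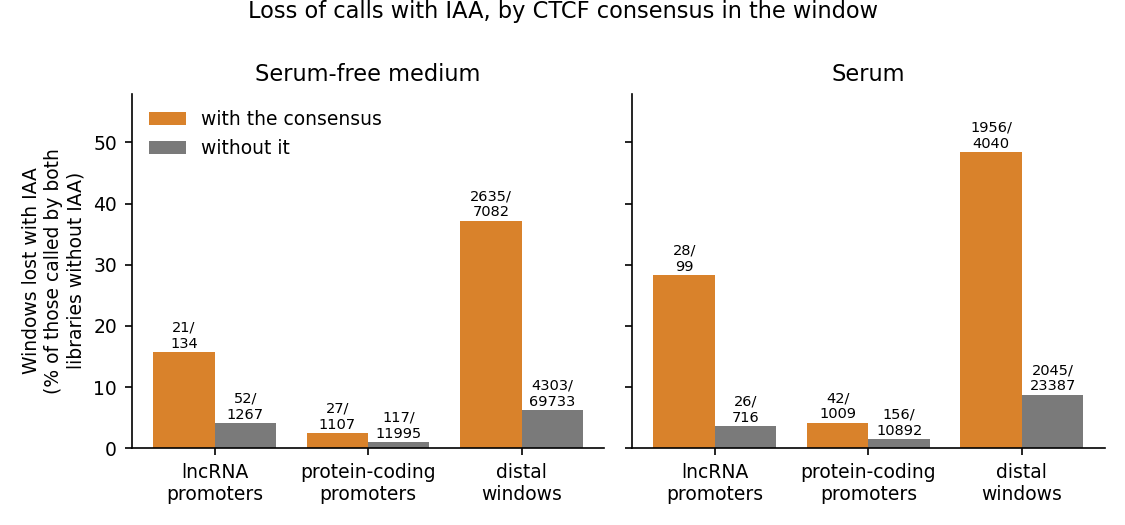
Percent of windows called by both libraries without IAA that neither IAA library called (vertical axis), for lncRNA promoters, protein-coding promoters and distal windows, with (orange) and without (grey) the CTCF consensus, in serum-free medium and serum. Numbers are counts lost over counts called. The lncRNA promoters with the consensus reach 15.7 and 28.3%, between the coding promoters and the distal windows.

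Over both media 10 of 720 lncRNA promoters (1.39%) were called by all 4 untreated and none of the 4 IAA libraries, against a background of 0.284%, and 7 of the 10 held the consensus. Of the 39 lost genes of every type, 19 held it. With the consensus 7.61% of lncRNA promoters and 1.58% of genes of every type were lost. By mean percentile the 10 lncRNA promoters were Gm34643, Gm12052, 4930447M23Rik, Gm31786, 4930402C01Rik, Gm16172, Rspo4os, Gm29458, Gm34983 and Gm35035. The last pair start close together on opposite strands and share 1 peak, and Gm29458 had an overlapping peak in 22 of 24 libraries, with its summit outside the promoter in most. No lncRNA promoter of 5890 was gained in both media, against 0.0351% of all genes. The 10 were among the 562 CpG-poor promoters (1.78%) and none among the 158 CpG-rich ones, beside the background of 0.284%. Without replicate 2 of the untreated serum libraries the losses were 18, and without replicate 1 of the control line with IAA they were 20. The gains reached 3 without either replicate 2 of the serum set.

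Gm34643, a lincRNA on chromosome 14 that starts at position 103012908, 30271 bp from the Kctd12 start, had percentiles of 87.2 and 84.9 without IAA in serum-free medium and 83.8 and 77.3 in serum. No IAA library of the control cells called it. In the wild-type line it ranked at 75.3 and 73.6 and in the mutated line at 67.9 and 72.5, and all 12 libraries of the Chd4 and Chd8 sets called it. Gm31786, on chromosome 8 at position 47750134 and 36202 bp from the Cdkn2aip start, followed the same calls without the consensus in its window. It ranked at 69.2 and 57.7 without IAA in serum-free medium, at 61.5 and 27.4 in serum, at 14.4 and 8.4 in the wild-type line and at 30.7 and 44.7 in the mutated line. Among 4587 genes of every type called by all 20 other libraries, these 2 alone were called by none of the 4 IAA libraries of control cells, a pattern picked after its values were seen. At deposited list lengths 1 of these 4 libraries called each of them.

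Rspo4os, antisense within Rspo4, which encodes an R-spondin that enhances Wnt signalling, had percentiles of 62.9 and 65.8 without IAA in serum-free medium and 29.0 and 36.9 in serum, no call with IAA in either, 45.8 and 43.1 in the wild-type line and no call in the mutated line. Of the 21 promoters with the consensus lost in serum-free medium, both wild-type libraries called 7 and both mutated libraries 7, and no library of either line called 3. For the 52 without it the numbers were 16, 14 and 10. As shares, 33.3% with and 30.8% without the consensus were called by both wild-type libraries and 33.3 and 26.9% by both mutated ones, beside 42.5 and 30.6% and 33.3 and 28.6% of lost genes of every type. All were chosen as uncalled in the control libraries with IAA. Called by both wild-type and neither mutated library were Rspo4os, Gm43126 and 6330420H09Rik, and the opposite was seen for Miat, Gm35615 and 4930573I07Rik, names taken after their values were seen. Against the control line with IAA, the wild-type line gained 56 of 6016 lncRNA promoters (0.931%, background 0.739%) and lost 51 of 1334 (3.82%, background 1.57%). With the mutated line 54 were gained (0.898%, background 0.717%) and 49 lost (3.67%, background 1.28%). With the consensus, 13 of 214 were gained in the wild-type line (6.07%) and 10 in the mutated line (4.67%), against 4.05 and 3.06% of genes of every type with the consensus. Losses with it were none and 1, beside 11 and 16 of 1335 genes of every type. Leaving out any 1 of the 4 libraries gave 115 to 159 gains and 100 to 185 losses for the wild-type line and 119 to 158 gains and 100 to 167 losses for the mutated line.

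The Chd4 set asked which promoters changed with hairpins against this remodeller. The overall share of called lncRNA promoters differed by less than the spread between libraries, while CpG-rich lncRNA promoters and coding promoters had lower shares in each of the 4 hairpin libraries than in both shluci libraries. With shluci 12.7 and 12.9% of lncRNA promoters were called, with shRNA1 12.7 and 12.0%, and with shRNA2 11.9 and 12.7%, a difference of −0.461 percentage points that is below the combined SD of 0.466 (two-sided exact permutation p = 0.2, adjusted p = 0.762). It was −1.99 with a −log10 q of at least 10 (exact permutation p = 0.0667, the smallest possible) and −0.136 with starts within 5000 bp of a protein-coding start left out. Coding promoters were called at 50.6 and 51.5% with shluci and at 44.1, 44.5, 35.7 and 41.6% with the hairpins. Per 100 called coding promoters, 9.48 and 9.44 lncRNA promoters were called with shluci and 10.8, 10.2, 12.5 and 11.6 with the hairpins. This difference of 1.82 exceeded the combined SD of 1.01, with 4 of 4 hairpin libraries above both shluci libraries (exact permutation p = 0.133, smallest possible 0.0667, adjusted p = 0.762).

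CpG-rich lncRNA promoters were called at 48.1 and 50.1% with shluci, at 42.5 and 39.8% with shRNA1 and at 34.8 and 43.1% with shRNA2. The groups did not overlap, with means of 49.1% ± 1.46 (SD, n = 2) and 40.0% ± 3.77 (SD, n = 4). CpG-poor lncRNA promoters were at 11.1 and 11.2% with shluci and between 10.7 and 11.4% with the hairpins. CpG-rich coding promoters were at 75.3 and 76.7% with shluci and between 49.1 and 63.5% with the hairpins. CpG-poor coding promoters were at 30.2 and 30.7% with shluci and at 28.5, 29.0, 24.7 and 27.7% with the hairpins, also without overlap. The shares by CpG class were not tested.

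**Figure D5:**
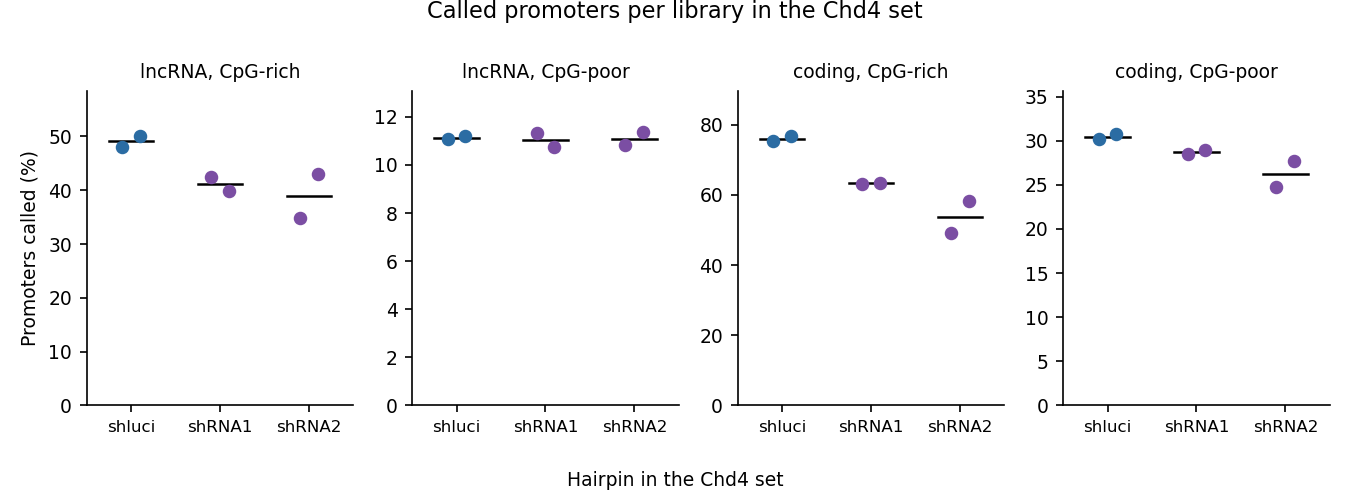
Percent of promoters called in each library of the Chd4 set (vertical axes from 0, scaled per panel), for CpG-rich and CpG-poor lncRNA and protein-coding promoters, points being libraries and bars group means. CpG-rich lncRNA promoters sit at 48.1 and 50.1% with shluci and at 34.8 to 43.1% with the hairpins, while CpG-poor ones stay between 10.7 and 11.4%.

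The lists of the Chd4 set also differed in quality. Peaks past the stricter limit of 10 on −log10 q numbered 15501 and 16498 with shluci and 6930 to 8563 with the hairpins. In 2 hairpin libraries (replicate 1 of each hairpin) 18840 and 17843 peaks were tied in −log10 p at the length limit. Of 10 promoters of pluripotency genes such as Nanog and Sox2, 5 and 6 were called with shluci, 7 and 5 with shRNA1, and 2 and 5 with shRNA2. Each library of this set also called 0 to 2 of 8 fibroblast, 2 to 4 of 5 primitive endoderm, 1 to 3 of 4 neural and 1 to 3 of 4 trophoblast promoters, so these calls do not separate cell types. The part of list quality in the Chd4 results was not tested.

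With Chd4 hairpins 69 of 751 lncRNA promoters (9.19%) were lost, against a background of 5.73%, and 46 of 6603 (0.697%) were gained, against 0.557%. Leaving out a shluci library gave 168 (without replicate 1) and 162 losses and 74 and 72 gains, and leaving out replicate 2 of shRNA2 gave 74 gains. With lists at 50% of the shortest 29 were gained, and with a −log10 q of at least 10 only 5. Losses were 8 of 143 CpG-rich (5.59%) and 61 of 608 CpG-poor lncRNA promoters (10.0%), a split that was not tested. With the CTCF consensus 7 of 74 were lost (9.46%) and without it 62 of 677 (9.16%), beside 6.15 and 5.69% of genes of every type. Lost promoters ranked at a median of 37.5 with shluci and the 294 called by all 6 libraries at 82.4.

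Mir22hg, host of the microRNA miR-22 on chromosome 11 (start 75461539, CpG observed/expected 0.66), had percentiles of 86.8 and 65.5 with shluci and no call with any Chd4 hairpin. In the 18 libraries of the other 3 sets it was called each time, at percentiles from 79.8 to 97.1. It holds the consensus and stayed called with IAA, at 96.0 and 96.5 in serum-free medium and 89.8 and 86.6 in serum. Gm20732, a lincRNA at a CpG-rich start on chromosome 15 (ratio 1.07), had 94.8 and 95.3 with shluci and no call with a hairpin, although 2 of the hairpin libraries had an overlapping peak with its summit outside the window. The same calls were found for 1700010B13Rik (51.2 and 96.3 with shluci), Wbscr25 (66.6 and 80.1) and Gm17276 (78.7 and 63.2). With 250 bp on either side of the start, or a −log10 q of at least 10, only 1 of the shluci libraries called Mir22hg and still no hairpin library did. In all, 21 of 368 lncRNA promoters called by the 20 other libraries (5.71%) were called by no Chd4 hairpin library, against 4.31% of genes of every type. For the 4 Chd8 hairpin libraries the pattern was found at none of 183 lncRNA promoters and at 1 of 4568 genes of every type (0.0219%). These counts were made after the values were seen. Zswim6, which carries a protein-coding symbol, is among the 21.

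The 3 promoters gained with the Chd4 hairpins at the highest mean percentiles (99.5, 91.4 and 88.4) were also called in other sets, among them Gm44129 (91.4) and Gm26918 (95.4, 88.9, 72.0 and 97.1 with the hairpins). At deposited list lengths Gm26918 was called by both shluci libraries too. Next came 7330404K18Rik, antisense near Mrps16 (75.7, 80.3, 91.9 and 87.9 with the hairpins), and, among those of similar rank, 1700100I10Rik and Gm31072, which lie head to head on chromosome 14 and share a peak (95.0, 53.0, 89.3 and 91.1). The last pair were called by no other library of the 24. With 250 bp on either side of the start 7330404K18Rik was called by no library of the set, and at deposited list lengths 1 shluci library called it too. Platr28, one of the pluripotency-associated transcripts, was gained at 85.2, 36.4, 51.2 and 49.7 and was also called by both Chd8 shRNA2 libraries and 1 control library with IAA. Platr1, of the same list, was lost, from 9.8 and 42.6 with shluci. Gm44730 was gained at 77.7, 96.6, 80.2 and 74.2 and was also called in the CTCF and Chd8 sets. Platr22 stayed called but ranked at 83.9 and 82.8 with shluci and at 64.8, 6.7, 20.4 and 52.2 with the hairpins.

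The Chd8 set asked the same of the second remodeller, and few lncRNA promoters differed. LncRNA promoters were called at 17.1 and 18.9% with shluci, 18.1 and 16.2% with shRNA1 and 18.4 and 18.8% with shRNA2, a difference of −0.146 percentage points within the combined SD of 1.72 (exact permutation p = 0.933). Per 100 coding calls the difference was −0.186, also within its combined SD of 0.380 (exact permutation p = 0.6, adjusted p = 0.970). Lost were 24 of 1026 lncRNA promoters (2.34%, background 0.674%) and gained 10 of 6053 (0.165%, background 0.221%). The lost promoters ranked at a median of 34.6 with shluci and the 713 called by all libraries of the set at 81.3. Leaving out a shluci library gave 156 (without replicate 1) and 143 losses and 38 and 86 gains. Without replicate 2 of shRNA2 there were 39 losses and 21 gains, without its replicate 1 there were 19 gains, and without replicate 2 of shRNA1 there were 34 gains, so these counts rest on single libraries.

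The 24 lost in the Chd8 set were among 854 CpG-poor promoters (2.81%), and none among 172 CpG-rich ones, beside the background of 0.674%. 2310002D06Rik ranked highest among the lost, at 83.8 and 44.7, followed by AC091309.5 at 53.6 and 62.3. Gm11536, antisense next to Hoxb3 of the Hoxb cluster, was lost from 29.5 and 44.0 and called by all 12 libraries of the CTCF and serum sets. Among the gained, Gm42738, antisense next to Prmt8, had 75.7, 76.9, 74.9 and 83.0 with the hairpins, and Gm29824, next to the cardiac factor gene Tbx20, had 64.7, 81.3, 76.3 and 46.6. Both were also called in the CTCF and serum sets.

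Between the 2 libraries of a group, 46.0% (Chd4 shRNA2) to 78.6% (control without IAA) of the lncRNA promoters called by either were called by both. With lists of different lengths per set, the share was 46.0 to 59.7% in the Chd4 set and 56.8 to 63.8% in the Chd8 set, 72.3 to 78.6% in the CTCF set and 64.6 to 68.5% in the serum set, values given side by side and not tested.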

How the data were processed

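One peak list per library was used, 24 in all. Trim Galore, Bowtie2, MACS2, deepTools and the build mm10 are named in the submitters' processing notes, without versions or settings. In the narrowPeak layout each deposited peak has a summit offset, a score, a ratio (fold over local background), a −log10 p and a −log10 q. The deposited −log10 p ranked peaks, and the deposited −log10 q and then the fold ordered peaks of equal −log10 p. The −log10 q also set a stricter alternative, and the deposited score was not used. Reads, and so the depth of a library, were not used here, and the length of a list takes its place.

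All peaks lay within the GRCm38 chromosome lengths. Lists were reduced within a set, with peaks equal in −log10 p, −log10 q and fold in a seeded random order. The motif scan and the calling were tested on simulated data. Shares were compared by two-sided exact permutation of library labels with Benjamini-Hochberg adjustment over 16 tests (Python 3.11.15, numpy 2.4.6, scipy 1.17.1). No gene was tested singly. The combined SD is the root of the summed variances of both groups, averaged over media where both enter. The background is the same count over genes of every type.

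Named genes were members of 7 lists, the up to 10 promoters of highest mean percentile lost or gained per comparison, and those regained in 1 CTCF line. The members, lists and comparisons were chosen with earlier results of these data known. Values from different sets were not tested against each other. Alternatives were list length, window, peak overlap, distance to coding starts, −log10 q, motif mismatches, replicate block and leaving out each library, and a new tie order and values within classes of shortest peak were added after seeing the data.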

Additional observations from a re-analysis of the deposited data

How the results depend on the processing

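The lower consensus share with IAA kept its direction in both media under every alternative run, from −4.91 to −0.988 percentage points over both media. Its higher values in the CTCF lines also kept direction, from 0.750 to 2.81 in the wild-type and 0.500 to 2.40 in the mutated line. So did the Chd4 difference in lncRNA per coding calls, from 0.863 with a −log10 q of at least 10 to 2.19 without replicate 2 of shRNA1. No p passed 0.05 in any setting. The calls of 50 named gene and comparison pairs moved in 120 of 660 alternatives and reversed in none. Where values moved, the cause was not tested, except that leaving out 1 library asks fewer libraries to agree and that shorter or stricter lists hold fewer peaks. Read depth was not used, so what it limits cannot be given: an uncalled promoter may have a peak below the list's limit or a summit outside the window.

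Several differences in call share that lay within the spread changed sign, though not that of the Chd4 set, which ran from −1.99 to −0.136. For the wild-type line against the control line it was 1.76 at deposited lengths, 0.0827 with lists at 50% of the shortest and 1.85 with a −log10 q of at least 10. For IAA over both media it was −0.200 at 50%, for Chd8 0.0477 at 50% and 0.0541 at the stricter q, and with peak overlap 0.369 for IAA in serum-free medium and −0.0700 for the mutated line. LncRNA per coding calls changed sign for IAA (−0.131 at 50%, −0.0564 at the stricter q) and Chd8 (0.0930), and the consensus share of the wild-type against the mutated line was −4.94e-05 at the stricter q. Leaving out 1 library at a time, the call share ranged from −0.178 to 0.115 for IAA in serum-free medium, −0.0445 to 0.286 in serum, −0.0382 to 0.127 over both, −1.06 to 0.763 for Chd8, −0.560 to 0.115 for the wild-type line and −0.0954 to 0.159 for the mutated line, and lncRNA per coding calls from −0.0455 to 0.154 for IAA.

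Counts moved by over 1.5 times as follows. At deposited lengths 6 promoters were lost with IAA in both media, 86 gained in serum, 94 gained in the wild-type and 83 in the mutated line. At 50% of the shortest list 35 were gained with IAA in serum-free medium and 32 in serum, 29 gained with Chd4 and 10 lost with Chd8 hairpins, and 28 and 31 lost in the wild-type and mutated lines. At the stricter q 5 were lost with IAA in both media and 1 gained, 18 gained in serum-free medium, 17 lost in serum, 5 gained with Chd4, 8 lost and 2 gained with Chd8 hairpins, and 11 and 18 lost in the wild-type and mutated lines. With IAA in both media 1 was gained with 250 bp on either side and 1 with peak overlap. Without 1 library, losses and gains were 10 to 20 and 0 to 3 for IAA in both media, 140 to 160 and 105 to 184 in serum-free medium, 99 to 148 and 119 to 145 in serum, 94 to 168 and 64 to 74 for Chd4, 30 to 156 and 15 to 86 for Chd8, 100 to 185 and 115 to 159 for the wild-type line, and 100 to 167 and 119 to 158 for the mutated line.

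The percent of consensus promoters lost with IAA was 34.4 in serum-free medium and 44.8 in serum at 50% of the shortest list, 30.9 in serum-free medium at the stricter q, 38.5 in serum with 250 bp on either side, and 7.79 and 10.8 with at most 2 mismatches. Without 1 library it was 22.4 to 25.4 and 34.3 to 38.4.

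With the replicate number as a replicate block, the difference in consensus share over both media stayed −3.05 with an exact permutation p of 0.125, and no call changed. Differences between replicates 1 and 2 correlated at −0.0477 to 0.0948 between groups. In the Chd4 set the lists of replicate 1 held 135583 to 141742 deposited peaks and those of replicate 2 80619 to 93091. In the other sets these ranges overlapped. Whether same-numbered libraries share a batch was not tested.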

Other observations

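LncRNA promoters were also compared between the media, where medium, set and cell line cannot be told apart. With the lists of the control line and the serum set reduced to 1 length, 87 of 738 lncRNA promoters (11.8%) called by all 4 serum-free libraries were called by no serum library, and 67 of 665 (10.1%) showed the opposite, against 1.97 and 3.64% of genes of every type. The highest in serum-free medium were Gm17089, Gm13844, AC127690.1, Tbc1d22bos and Gm12690, and in serum AC079441.1, Gm36017, Gm45159, C130073E24Rik and 1700092E19Rik. These names were taken after their values were seen. The absences hold at that reduced length: Gm11536, among the 67, was called in serum-free medium with the longer lists used above.

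Of the 172 called by all 24 libraries, the 10 with the highest mean percentiles (97.9 to 99.6) were Gm21814, Gm31793, Gm5091, Gm32856, 4632415L05Rik, Gm26901, Gm31805, Gm37494, Gm17768 and BC002059.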
